A study of Homo sapiens with 6 samples.

Results

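The genes of the epidermal growth factor receptor (ERBB) family and its ligands were examined in C4-2B cells and in C4-2B enzalutamide resistant cells. The rows of the deposited expression table with the symbols EGFR, ERBB2, ERBB3, ERBB4, EGF, AREG, EREG, NRG1, TGFA and HBEGF were taken, which are 10 of the 58024 genes of the table, 4 receptors and 6 ligands. C4-2B is an established human prostate cancer line, a castration-resistant derivative of LNCaP passed through castrated nude mice, and the labels write it C42-B. The 3 parental libraries came from C4-2B cells passaged alongside the selected cells in the vehicle, dimethyl sulfoxide, given as 1% in the series description and as at most 0.1% in the published methods. The 3 resistant libraries came from C4-2B cells passaged in 1 to 20 µM enzalutamide, an antiandrogen drug, for at least 6 months and then kept in 5 µM. The extraction protocol names 10 µM enzalutamide for cells of both kinds, which leaves unclear whether parental cells met the drug at harvest. The sources used here do not say whether the 3 libraries of a group came from separate cultures, so that p values measure the spread between these libraries, which may be technical.

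ERBB receptors are membrane tyrosine kinases that pair on binding a ligand and signal through adaptors to the RAS-MAPK and PI3K-AKT cascades. EGF, TGFA and AREG bind EGFR, HBEGF and EREG bind EGFR and ERBB4, and NRG1 binds ERBB3 and ERBB4. ERBB2 has no known ligand of its own and acts as a partner, and ERBB3 has little kinase activity and recruits PI3K through its tail. The ligands are made as membrane precursors that are released by ADAM proteases.

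The values of the table were taken to be FPKM, a unit of fragments divided by transcript length and library size, so that levels may be compared between genes. They summed to between 792975 and 870110 in a library, and the depth was estimated from the values of lowly expressed genes at between 13500000 and 20400000 reads per library. At these depths, 1 read on a transcript of 2000 bases is worth between 0.0272 and 0.0412 FPKM. KLK3, which encodes prostate specific antigen, fell from 2556 ± 274 to 44.04 ± 2.58 FPKM (n = 3 each, SD). All 9 luminal prostate markers looked up were above 0 in every library, but their levels differed and not in 1 direction. By the limma fit given below, 2 were upregulated, 6 were downregulated, KLK3 among them, and 1 did not pass the threshold. The share called was 88.9%, against 44.4% over all genes tested, and the median log2 fold change was −0.42. The fibroblast markers, all 5 of which are given here, went in different directions. DCN was listed at 0 in all parental libraries, and at 3.63, 3.78 and 4.35 FPKM in resistant cells, while COL1A2 did not pass 0.132 FPKM in any library. LUM had a mean of 0.0604 ± 0.0523 FPKM in parental cells and 0.969 ± 0.313 FPKM in resistant cells. PDGFRB had 2.10 ± 1.25 and 0.164 ± 0.114 FPKM, and COL1A1 had 6.71 ± 1.90 and 4.39 ± 2.14 FPKM. COL1A1 made up most of the summed level in the parental libraries. In resistant replicates 0, 1 and 2 it had 2.86, 3.47 and 6.83 FPKM, below DCN in replicates 0 and 1. The summed FPKM of the 5 fibroblast markers was 7.87 to 10.1 in the parental and 7.88 to 12.6 in the resistant libraries, and that of the 4 leukocyte markers stayed at or below 0.630. The endothelial markers summed to 0.568 to 1.14 FPKM in parental and 0.0946 to 0.420 FPKM in resistant libraries, and the basal markers to 0.493 to 0.927 and 0 to 0.262 FPKM. The short RNA gene RPPH1 was at 0 in parental libraries and held 10.7% to 11.6% of the summed FPKM in resistant libraries, where RMRP held 11.4% to 12.6% against 18.4% to 21.5% in parental libraries. With short non-coding RNAs left out of the totals, EGFR, ERBB2, EGF, ERBB4 and TGFA had log2 differences of −1.93, −0.56, −3.96, 5.67 and 2.09, and the calls among the members stayed at 3 higher and 3 lower. The part of the other marker differences in the results was not tested. In these bulk libraries, fewer cells with a transcript and less transcript per cell cannot be told apart.

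In GRCh38 with the GENCODE v44 annotation, EGFR lies on chromosome 7 (55019017 to 55211628, plus strand), ERBB2 on chromosome 17 (39687914 to 39730426, plus strand), ERBB3 on chromosome 12 (56076799 to 56103505, plus strand) and ERBB4 on chromosome 2 (211375717 to 212538841, minus strand). EGF lies on chromosome 4 (109912883 to 110013766), TGFA on chromosome 2 (70447284 to 70554193) and HBEGF on chromosome 5 (140332843 to 140346603). AREG (74445136 to 74455005) and EREG (74365145 to 74388749) share a cluster of 486 kb on chromosome 4 with the ligand genes EPGN and BTC. The promoters of the 2 receptors and the 2 ligands with the largest log2 differences among the members are given here, since the members that changed most went in both directions. The place of AREG rests on the pseudocount, and with 1 FPKM its log2 difference of 0.79 lies under that of TGFA, 1.03. Each holds 250 bases before and 50 bases after the RefSeq start (GRCh38.p14), at chr2:212538753-212539052 on the minus strand for ERBB4, and on the plus strand at chr7:55018767-55019066 for EGFR, chr4:109912633-109912932 for EGF and chr4:74444886-74445185 for AREG. Capitals mark matches, on either strand, to the GC box GGGCGG, the TATA box TATAAA, the hexamer TGACGT of the cAMP response element and the core CCGGAA of ETS factors.
ERBB4: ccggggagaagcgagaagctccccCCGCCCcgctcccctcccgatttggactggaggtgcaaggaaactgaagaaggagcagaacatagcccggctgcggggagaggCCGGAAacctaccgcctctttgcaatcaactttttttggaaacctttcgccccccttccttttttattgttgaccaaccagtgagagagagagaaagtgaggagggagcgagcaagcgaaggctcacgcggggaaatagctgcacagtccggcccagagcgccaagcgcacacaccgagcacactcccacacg
EGFR: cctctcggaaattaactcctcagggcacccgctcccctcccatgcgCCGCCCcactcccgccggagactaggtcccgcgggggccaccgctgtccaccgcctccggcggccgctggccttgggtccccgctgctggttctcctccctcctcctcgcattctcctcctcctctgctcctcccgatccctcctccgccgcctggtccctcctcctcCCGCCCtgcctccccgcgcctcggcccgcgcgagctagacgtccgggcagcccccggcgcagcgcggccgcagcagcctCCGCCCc
EGF: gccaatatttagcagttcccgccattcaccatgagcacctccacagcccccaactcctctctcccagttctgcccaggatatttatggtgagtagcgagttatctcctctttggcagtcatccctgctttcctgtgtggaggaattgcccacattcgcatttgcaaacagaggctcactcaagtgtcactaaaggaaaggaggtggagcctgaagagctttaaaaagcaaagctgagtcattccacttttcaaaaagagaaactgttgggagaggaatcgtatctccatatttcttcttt
AREG: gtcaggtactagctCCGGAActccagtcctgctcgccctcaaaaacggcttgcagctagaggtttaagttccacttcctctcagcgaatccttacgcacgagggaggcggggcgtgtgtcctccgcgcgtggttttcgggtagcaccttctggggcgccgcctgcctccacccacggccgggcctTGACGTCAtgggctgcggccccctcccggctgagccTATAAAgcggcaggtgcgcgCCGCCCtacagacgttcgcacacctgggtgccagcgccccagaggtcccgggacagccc
The EGFR promoter printed held 3 matches, all to the GC box, and had a GC content of 75.3% against a median of 58.7% over all 35116 promoters. Another EGFR entry of the table, at chr7:55109589-55109888, had a GC content of 42% and TATA box matches at −146 and −36, and is not printed. The ERBB4 promoter held a GC box and an ETS core at base −143 counted from the start. AREG had a TATA box at −29 and both strands of the cAMP hexamer at −65 and −63, which overlap. The EGF window held none of these letters. Of all promoters, 45.0% held the GC box, 11.5% the TATA box, 7.98% the cAMP hexamer and 17.2% the ETS core. These matches are letters in a window and were not measured as binding. Of the 10 members, 8 had a promoter in the RefSeq table, and ERBB3 and NRG1 did not.

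Resistant cells were compared with parental cells to ask which ERBB receptors and ligands differed at the transcript level. EGFR and its ligand EGF fell, the ligand TGFA rose, ERBB4 was near 0 in parental cells and higher in resistant cells, AREG was seen only in the resistant libraries, and ERBB2 was lower by a smaller step. The log2 values of FPKM plus 0.1 were fitted with limma over the 24468 genes that averaged 0.1 FPKM or more, and Benjamini-Hochberg adjusted p values below 0.05 were counted as DEGs. Log2 differences on this scale understate the change of genes with low FPKM. Of the members, 9 were tested and EREG was too low. AREG, NRG1 and ERBB4 passed the filter only through the resistant libraries, so that a difference was bound to be seen, and their values are a description. Among the 9, 3 were upregulated (TGFA, and ERBB4 and AREG with this limit), 3 were downregulated and 3 did not pass the threshold. The share of all genes tested was 22.1% for upregulated and 22.3% for downregulated genes, or 44.4% in all. The groups did not overlap for 6 of the 9 members, and for 54.8% of all genes tested.

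**Figure D1:**
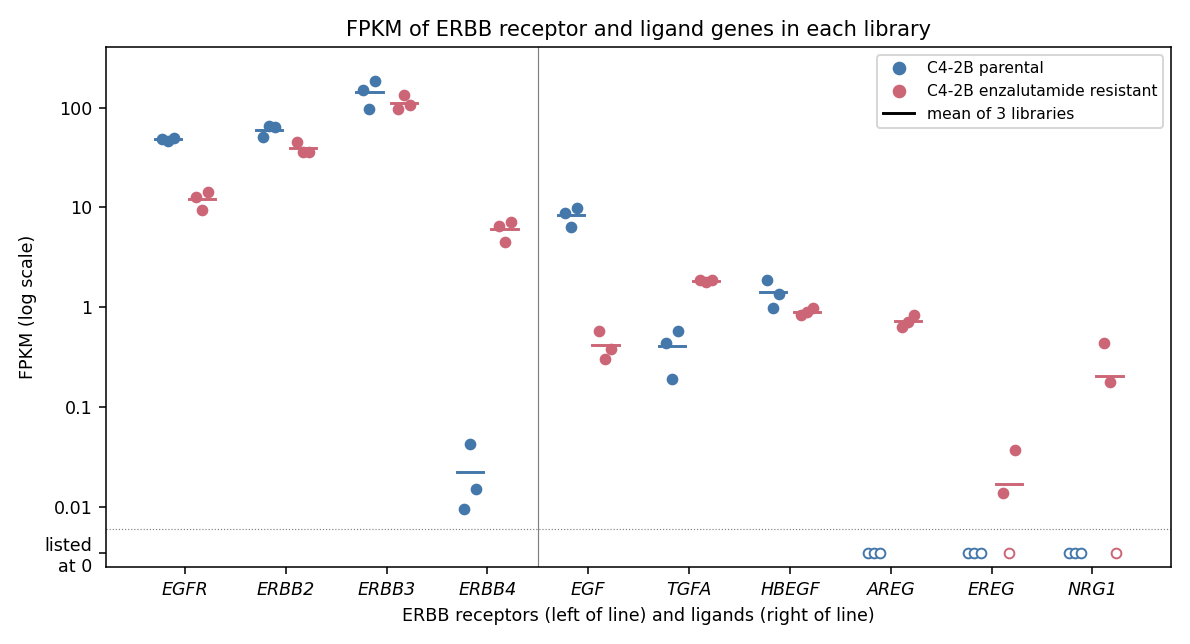
FPKM of the 4 receptor genes and 6 ligand genes in each library on a log scale, with parental libraries in blue, resistant libraries in red, a line for each mean, and open circles for values listed at 0. EGFR and EGF lie lower and ERBB4 and TGFA higher in all 3 resistant libraries, while the points of ERBB3 and HBEGF overlap.

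EGFR, the receptor of EGF, TGFA and AREG, had 48.1, 45.9 and 49.6 FPKM in parental cells, against 12.6, 9.39 and 14.4 FPKM in resistant cells. The highest resistant library therefore lay well below the lowest parental library. The mean fell from 47.9 ± 1.84 to 12.1 ± 2.53 FPKM (n = 3 each, SD), at a log2 difference of −1.99 (SE 0.16, adjusted p by limma and Benjamini-Hochberg = 1.96e-04), or 3.95-fold. The antisense gene EGFR-AS1 did not pass 0.0277 FPKM in any library.

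ERBB2, the partner receptor without a ligand, had 51.2, 65.6 and 63.5 FPKM in parental cells, against 45.5, 35.6 and 36.1 FPKM in resistant cells. The groups did not overlap, but the lowest parental and the highest resistant library lay close together. The mean fell from 60.1 ± 7.78 to 39.1 ± 5.54 FPKM (n = 3 each, SD), at a log2 difference of −0.62 (SE 0.14, adjusted p by limma and Benjamini-Hochberg = 0.0124). This call was lost in 4 of the 6 fits that left out a library, those without parental replicate 1 or 2 and without resistant replicate 1 or 2, where the adjusted p by limma and Benjamini-Hochberg lay between 0.0508 and 0.0581 and the log2 difference between −0.58 and −0.55. MIEN1 and PGAP3 overlap ERBB2 on the other strand, and whether the authors' estimates used strand is not given in the sources used here.

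ERBB3, the kinase-poor receptor of NRG1, had the highest level of the family in every library. It had 149.9, 96.2 and 184 FPKM in parental cells, against 96.0, 133 and 107 FPKM in resistant cells. The parental libraries alone spanned almost the whole range, and the groups overlapped. The log2 difference was −0.32 (SE 0.25, adjusted p by limma and Benjamini-Hochberg = 0.355), and ERBB3 did not pass the threshold. The overlapping gene RP11-603J24.9 on the same strand, with 13.5 to 22.6 FPKM over the 6 libraries, may share reads with it.

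ERBB4, the receptor of NRG1 that also binds HBEGF and EREG, had 0.00969, 0.0428 and 0.0151 FPKM in parental cells, against 6.50, 4.55 and 7.18 FPKM in resistant cells. Every resistant library was more than 100-fold above every parental library. On the canonical transcript, the parental values correspond to an estimated 2.4, 9.9 and 2.4 reads and the resistant values to 1316, 877 and 1205 reads. The log2 difference was 5.64 (SE 0.33). Its size depends on the pseudocount and was 2.77 with 1 FPKM and 7.65 with 0.01 FPKM. The ratio of the means without a pseudocount was 269.7 and rests on those few parental reads. No gene that overlaps ERBB4 in the annotation was above 0 in any library.

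The order of the receptors by FPKM was ERBB3, ERBB2, EGFR and ERBB4 in both kinds of cells. Neighbours in this order did not overlap over the 3 libraries of either group, and in the parental cells the step from ERBB2 to EGFR was narrow, with 51.2 FPKM as the lowest ERBB2 and 49.6 FPKM as the highest EGFR value. In the resistant cells, EGFR and ERBB4 came close, with 9.39 FPKM as the lowest EGFR and 7.18 FPKM as the highest ERBB4 value. The receptor genes summed to 249, 208 and 297 FPKM in parental cells, against 161, 183 and 165 FPKM in resistant cells. All 3 resistant sums were below the parental sums (exact two-sided permutation test, p = 0.1, the smallest that 3 against 3 can give).

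**Figure D2:**
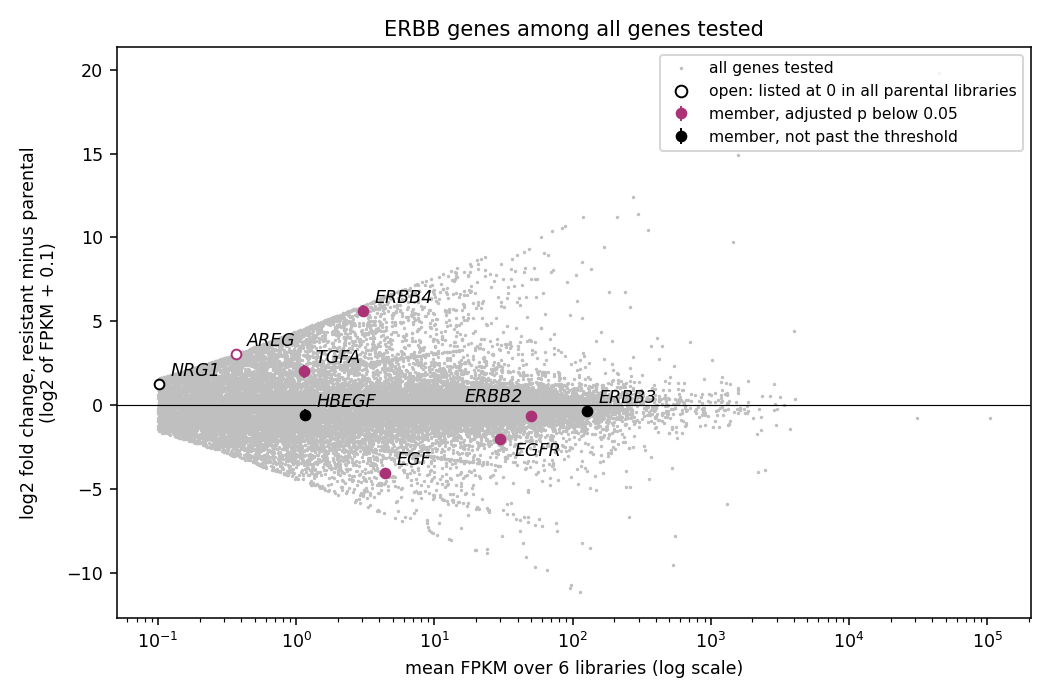
Log2 fold change of resistant over parental cells (log2 of FPKM + 0.1) against the mean FPKM over the 6 libraries for all genes tested (grey) and 9 members (coloured). ERBB4 at 5.64 and EGF at −4.02 lie farthest from 0 among the members, and open circles mark AREG and NRG1, whose position is set by the pseudocount because all parental values are 0.

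Among the ligands, EGF showed the largest loss. EGF, which activates EGFR, had 8.83, 6.34 and 9.80 FPKM in parental cells, against 0.575, 0.307 and 0.387 FPKM in resistant cells. All resistant libraries were lower by more than 10-fold than the lowest parental library. The mean fell from 8.32 ± 1.78 to 0.423 ± 0.137 FPKM (n = 3 each, SD), which is 19.7-fold, and a log2 difference of −4.02 (SE 0.29, adjusted p by limma and Benjamini-Hochberg = 1.29e-04).

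TGFA, another ligand of EGFR, had 0.441, 0.193 and 0.586 FPKM in parental cells, against 1.89, 1.79 and 1.88 FPKM in resistant cells. The resistant values were tight and lay all above the parental values. The mean rose from 0.407 ± 0.199 to 1.85 ± 0.0546 FPKM (n = 3 each, SD), at a log2 difference of 2.03 (SE 0.39, adjusted p by limma and Benjamini-Hochberg = 0.00640). With a pseudocount of 1 FPKM the log2 fold change was 1.03, still past the threshold.

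AREG, which encodes amphiregulin, was listed at 0 in all parental libraries and at 0.641, 0.711 and 0.836 FPKM in resistant cells. The groups did not overlap. No p is given because the filter fixed the direction, and no fold change is given against a group at 0. On a canonical transcript of 1234 bases the resistant values correspond to an estimated 11.3, 11.9 and 12.2 reads, so that the level was low. EREG, which encodes epiregulin, was listed at 0 in 4 of the 6 libraries and at 0.0139 and 0.0375 FPKM in resistant replicates 0 and 2. These correspond to an estimated 1 and 2.3 reads, which is at the limit of what a library can show.

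HBEGF, the heparin-binding ligand of EGFR and ERBB4, had 1.89, 0.980 and 1.37 FPKM in parental cells, against 0.833, 0.889 and 0.986 FPKM in resistant cells. The groups overlapped between parental replicate 1 and resistant replicate 2. The log2 difference was −0.55 (SE 0.32, adjusted p by limma and Benjamini-Hochberg = 0.204). NRG1, the ligand of ERBB3 and ERBB4, lies on chromosome 8 (31639222 to 32855666, plus strand) and averaged 0.102 FPKM, just above the filter. It was listed at 0 in all parental libraries, and at 0.435, 0.177 and 0 FPKM in resistant cells. The resistant libraries thus disagreed among themselves, and NRG1 did not pass the threshold (adjusted p by limma and Benjamini-Hochberg = 0.182). Without resistant replicate 2, the library at 0, NRG1 passed the threshold, which is a description for the same reason.

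The order of the ligands differed between the cells. In the parental cells EGF was above HBEGF and HBEGF above TGFA without overlap, and AREG, EREG and NRG1 were all listed at 0. In the resistant cells TGFA was above HBEGF without overlap, HBEGF and AREG overlapped, EGF lay below AREG without overlap, and the values of EGF, NRG1 and EREG overlapped in that order. The 6 ligands summed to 11.2, 7.51 and 11.8 FPKM in parental cells, against 4.39, 3.88 and 4.13 FPKM in resistant cells. The sums did not overlap (exact two-sided permutation test, p = 0.1, the smallest possible here). In every library the receptors summed to a higher value than the ligands, by 22.3, 27.7 and 25.2 times in the parental and by 36.6, 47.2 and 39.9 times in the resistant libraries.

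Shares within a library do not depend on how the libraries were scaled against each other. EGFR made up 19.4% ± 2.70 of the summed receptor FPKM in parental cells, against 7.24% ± 1.87 in the resistant cells (SD, n = 3 each, exact two-sided permutation test, p = 0.1). The share of ERBB4 was 0.00986% ± 0.00931 in the parental and 3.63% ± 1.00 in the resistant cells, with no overlap and the same exact p of 0.1. The share of ERBB2 was 24.5% ± 6.13 in the parental and 23.2% ± 4.56 in the resistant cells (exact permutation p = 0.7), and its direction turned when parental replicate 1 or resistant replicate 1 was left out, with differences of 2.25 and 0.589 percentage points. The share of ERBB3 was 56.1% ± 8.54 and 65.9% ± 6.59 (exact permutation p = 0.3).
Among the ligands, EGF made up 82.3% ± 2.78 of the summed FPKM in parental cells, against 10.1% ± 2.67 in the resistant cells (SD, n = 3 each, exact two-sided permutation test, p = 0.1). TGFA went from 3.83% ± 1.21 to 44.9% ± 1.66, HBEGF from 13.9% ± 2.72 to 21.9% ± 2.61, and AREG from 0% to 17.7% ± 2.86, all without overlap between the groups and with an exact permutation p of 0.1. EGF was thus the major ligand transcript in each parental library, and TGFA in each resistant library. The share of HBEGF was higher although its FPKM was not past the threshold, since the sum it is taken from was lower.

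**Figure D3:**
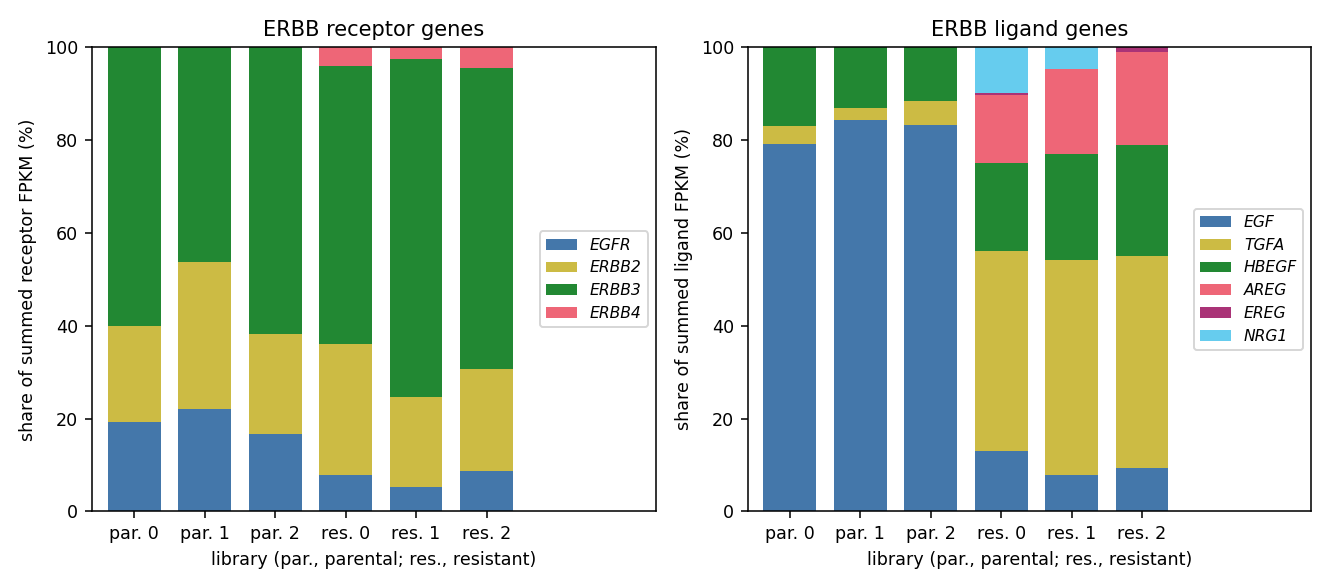
Share in percent of each receptor gene in the summed receptor FPKM (left) and of each ligand gene in the summed ligand FPKM (right), a bar for each of the 3 parental (par.) and 3 resistant (res.) libraries. EGF fills 79.1% to 84.4% of the parental ligand bars and 7.93% to 13.1% of the resistant bars, where TGFA is the largest part.

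The other ligand genes of the family were low. BTC, which encodes betacellulin and binds EGFR and ERBB4, had 0.0440, 0 and 0 FPKM in parental cells, against 0.738, 0.734 and 1.07 FPKM in resistant cells. NRG3, a ligand of ERBB4, was listed at 0 in all parental libraries, and at 0.382, 0.392 and 0.497 FPKM in resistant cells. Both were higher in all 3 resistant libraries, and both passed the filter only through them. EPGN and NRG4 did not pass the threshold, and NRG2 was too low to be tested. In the ligand cluster on chromosome 4, AREG and BTC were higher in all resistant libraries, EPGN had 0.105, 0 and 0 FPKM in parental cells, against 0, 0.0657 and 0.616 FPKM in resistant cells, and EREG had an estimated 2.3 reads at most.

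The genes beside EGFR, ERBB2 and ERBB3 were looked up to see whether whole loci moved with the receptors. Around EGFR, the genes SEC61G, LANCL2 and VOPP1 had log2 fold changes of 0.03, −0.37 and −0.26, none past the threshold, and VSTM2A rose by 1.79 (adjusted p by limma and Benjamini-Hochberg = 0.0118). Of the 4 neighbours tested, 0 were downregulated by limma, also at an unadjusted p below 0.05. Over all genes tested 22.3% were downregulated, so that 4 genes are too few to set this count apart. Beside ERBB2, the genes STARD3, PGAP3 and MIEN1, which lie within 51 kb of its start, had log2 fold changes of −0.10, 0.38 and −0.06 and did not pass the threshold. PNMT and GRB7 start within the same distance and were higher. PNMT, named after its values were seen, was listed at 0 in all parental libraries and averaged 1.53 FPKM in resistant cells. It passed the filter only through the resistant libraries. GRB7, whose product is an adaptor of ERBB2, rose from 9.61 ± 2.02 to 18.4 ± 1.64 FPKM (n = 3 each, SD), at a log2 difference of 0.95 (adjusted p by limma and Benjamini-Hochberg = 0.00570), the opposite direction to ERBB2. PPP1R1B rose by 4.44 and IKZF3 fell by 2.33 on the log2 scale. Of the 8 neighbours of ERBB2 tested, 3 were upregulated, PNMT among them with the limit given, and 1 was downregulated. The share called was 50%, against 44.4% over all genes tested, where 22.1% were upregulated and 22.3% downregulated. Beside ERBB3, 5 of 9 genes were upregulated and 0 downregulated by limma, a share called of 55.6% against the same 44.4%. At an unadjusted p below 0.05 limma gave 6 higher and 1 lower. RAB5B, SUOX, RPS26, ESYT1 and MYL6 rose by 0.64, 0.44, 0.45, 1.06 and 0.29 on the log2 scale, and PA2G4, RPL41, ZC3H10 and IKZF4 were not past the threshold, with 0.17, 0.29, 0.39 and −0.71.

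**Figure D4:**
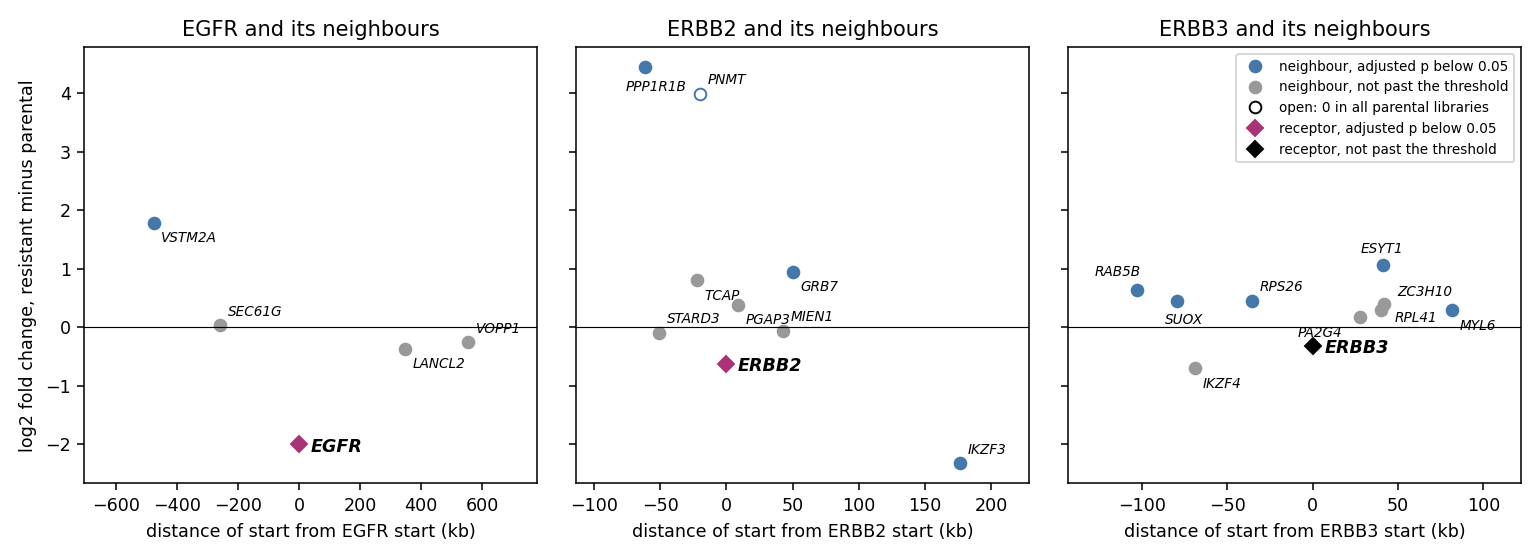
Log2 fold change of resistant over parental cells for EGFR, ERBB2 and ERBB3 (diamonds) and their neighbours (circles), against the distance in kb between the start of each gene and that of the receptor. EGFR at −1.99 lies below all 4 neighbours shown, and the open circle marks PNMT, which was listed at 0 in all parental libraries.

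Among the genes whose products release the ligands, ADAM9, ADAM10 and RHBDF2 fell and ADAM17 rose. Of 7 genes of ligand shedding, 6 were tested, 1 was upregulated and 3 were downregulated, with a median log2 fold change of −0.53 against −0.05 over all genes tested. The share called was 66.7% of the 6, against 44.4% over all genes tested. ADAM10, the main sheddase of EGF, fell from 98.2 ± 8.87 to 54.9 ± 2.04 FPKM (n = 3 each, SD), at a log2 difference of −0.84 (SE 0.09, adjusted p by limma and Benjamini-Hochberg = 4.89e-04). ADAM9, a related protease, fell by 1.07 on the log2 scale (adjusted p by limma and Benjamini-Hochberg = 1.09e-04). RHBDF2, which helps ADAM17 mature and reach the surface, was named after its values were seen and fell from 14.4 ± 1.47 to 5.75 ± 0.993 FPKM (n = 3 each, SD), at a log2 difference of −1.32 (adjusted p by limma and Benjamini-Hochberg = 0.00114). ADAM17, the main sheddase of TGFA, AREG and HBEGF, was named after its values were seen and was the upregulated gene. It rose from 6.69 ± 0.480 to 9.65 ± 0.455 FPKM (n = 3 each, SD), at a log2 difference of 0.52 (adjusted p by limma and Benjamini-Hochberg = 0.0124). RHBDF1 and FRMD8, also named after their values were seen, did not pass the threshold, with log2 fold changes of 0.10 and −0.22.

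Of 16 receptor adaptors, all were tested, 4 were upregulated, 2 were downregulated and 10 were not past the threshold, with a median log2 fold change of 0.20. The share called was 37.5%, against 44.4% over all genes tested. SHC2, a member of the SHC family that binds phosphorylated receptors, had 0.179, 0.249 and 0.473 FPKM in parental cells, against 12.6, 14.7 and 14.2 FPKM in resistant cells. Its log2 difference was 5.19 (SE 0.31, adjusted p by limma and Benjamini-Hochberg = 5.83e-05). SOS1, an exchange factor that activates RAS, rose from 7.78 ± 2.18 to 20.4 ± 1.02 FPKM (n = 3 each, SD), at a log2 difference of 1.42. The widely used adaptors GRB2 and SHC1, named after their values were seen, had log2 fold changes of 0.11 and −0.15 and did not pass the threshold.

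In the cascades below the receptors, subunits of PI3K and MAP2K1 fell. Of 10 genes of the RAS-MAPK cascade, 3 were upregulated and 2 downregulated, with a median log2 fold change of −0.05. The share called was 50%, against 44.4% over all genes tested. MAP2K1, which encodes the kinase MEK1, fell from 53.5 ± 5.58 to 30.2 ± 2.43 FPKM (n = 3 each, SD), at a log2 difference of −0.82 (adjusted p by limma and Benjamini-Hochberg = 0.00131), and NRAS fell by 0.56 on the log2 scale. Of 11 genes of the PI3K-AKT cascade, 10 were tested, 0 were upregulated and 4 were downregulated by limma, with a median of −0.43. That is 40% of the 10, against 44.4% over all genes tested. At an unadjusted p below 0.05 limma gave 1 higher and 6 lower genes. PIK3CD, a catalytic subunit of PI3K, had 23.6, 20.8 and 25.4 FPKM in parental cells, against 1.01, 0.697 and 1.14 FPKM in resistant cells, at a log2 difference of −4.50 (SE 0.21, adjusted p by limma and Benjamini-Hochberg = 2.61e-05). PIK3CB, another catalytic subunit, fell from 62.9 ± 1.93 to 23.0 ± 2.33 FPKM, at a log2 difference of −1.45. The other 2 downregulated genes were the regulatory subunits PIK3R2 and PIK3R3, named after their values were seen, with log2 fold changes of −1.24 and −0.74.

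Among 14 negative regulators of ERBB receptors, 2 were upregulated, 2 were downregulated and 10 were not past the threshold, with a median log2 fold change of −0.11. The share called was 28.6%, against 44.4% over all genes tested. LRIG1, a membrane protein that promotes the degradation of ERBB receptors, had 43.8, 51.3 and 40.0 FPKM in parental cells, against 4.31, 5.37 and 6.56 FPKM in resistant cells. Its log2 difference was −3.05 (SE 0.18, adjusted p by limma and Benjamini-Hochberg = 5.73e-05). ERRFI1, an inhibitor that binds the EGFR kinase, was named after its values were seen and had 12.8, 14.8 and 11.4 FPKM in parental cells, against at most 7.47 FPKM in resistant cells. It fell by 0.85 on the log2 scale (adjusted p by limma and Benjamini-Hochberg = 0.00265). PTPRK, a receptor phosphatase that acts on EGFR, rose from 4.83 ± 0.635 to 21.2 ± 2.53 FPKM (n = 3 each, SD), at a log2 difference of 2.11 (adjusted p by limma and Benjamini-Hochberg = 1.22e-04). The ubiquitin ligase genes CBL, CBLB and CBLC, named after their values were seen, did not pass the threshold. RNF41, another ubiquitin ligase gene of the list, also named after its values were seen, rose from 42.7 ± 2.22 to 53.6 ± 4.15 FPKM (n = 3 each, SD). Its log2 difference was 0.33 (adjusted p by limma and Benjamini-Hochberg = 0.0233).

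Of 14 genes known to be induced by ERK signalling, all were tested, 9 were upregulated, 3 were downregulated and 2 were not past the threshold, with a median log2 fold change of 1.79. The share called was 85.7% here and 44.4% over all genes tested. These figures and the median include 3 genes that passed the filter only through the resistant libraries. For those 3 a difference was bound to be seen. CCND1, which encodes cyclin D1, rose from 274 ± 19.7 to 1759 ± 71.2 FPKM (n = 3 each, SD), at a log2 difference of 2.68 (SE 0.07, adjusted p by limma and Benjamini-Hochberg = 4.69e-06). DUSP4, a phosphatase of ERK, fell from 26.5 ± 0.717 to 2.00 ± 0.296 FPKM (n = 3 each, SD), at a log2 difference of −3.67 (SE 0.15, adjusted p by limma and Benjamini-Hochberg = 1.56e-05). The genes that follow were named after their values were seen. ETV4, SPRY4 and EPHA4 passed the filter only through the resistant libraries. DUSP6, another ERK phosphatase, rose by 4.03 on the log2 scale, and the ETS factor genes ETV4 and ETV5 rose by 5.60 and 4.22. Of the Sprouty genes, which encode inhibitors of receptor tyrosine kinase signalling, SPRY2 and SPRY4 rose by 1.42 and 4.14, and SPRY1 fell by 1.43. DUSP and Sprouty genes thus each had members that went in opposite directions. PHLDA1 fell by 2.99 on the log2 scale.

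**Figure D5:**
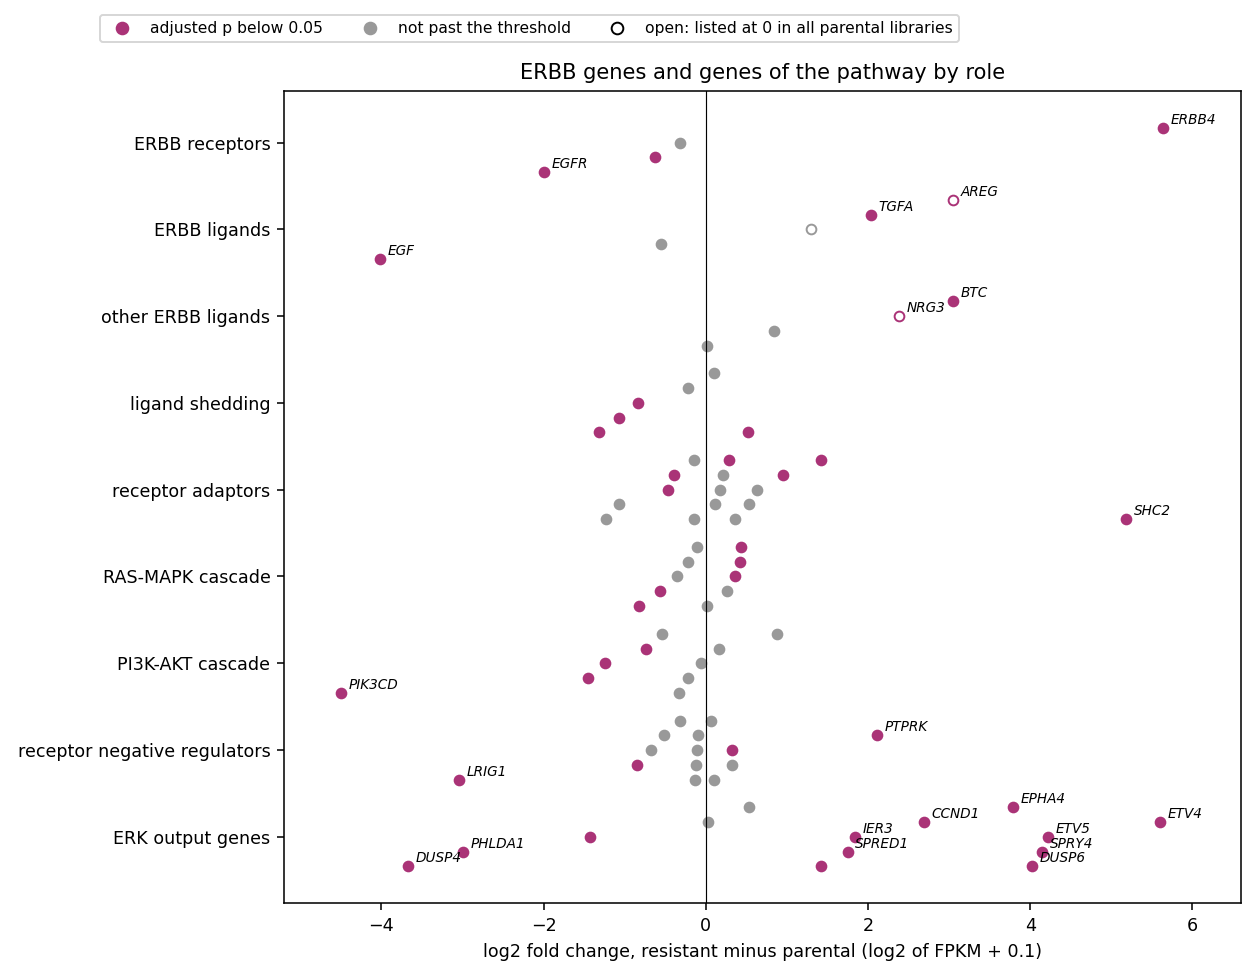
Log2 fold change of resistant over parental cells for the tested genes of each list, a point per gene, with DEGs in purple, genes not past the threshold in grey, and open circles for genes listed at 0 in all parental libraries. The 14 ERK output genes have a median of 1.79 with 3 genes below 0, and the PI3K-AKT genes have a median of −0.43. The ERK output genes include 3 that passed the filter only through the resistant libraries.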

How the data were processed

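RNA-seq covered 3 parental and 3 enzalutamide resistant C4-2B samples, read from 1 end over 50 bp. The labels name both a TruSeq V2 and a TruSeq Stranded Total RNA kit. According to the methods, the authors used TrimGalore 0.4.3 for trimming, STAR 2.5.3 for alignment (GRCh38, GENCODE v25) and Cufflinks 2.2.1 for the deposited FPKM values. The submitters' processing notes instead name Trimmomatic 0.27, FastQC 0.10.1 and the mouse build mm10, while the table holds human gene identifiers. The table names no unit, and FPKM was inferred from the use of Cufflinks and the form of the values. How libraries were scaled against each other is not given in the sources used here.

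Since read counts were not used here, no counting interval is given, and a value of 0 was read as listed at 0. Depth was estimated from genes annotated with 1 transcript, 600 to 8000 bases long, with fragments assumed to be 200 bases long. Log2 of FPKM plus 0.1 was fitted with limma 3.58.1 in R 4.3.3 (lmFit, then eBayes with trend) over all genes averaging 0.1 FPKM or more, and two-sided p values were adjusted with the Benjamini-Hochberg method over all of them. Shares were tested with exact permutation tests in scipy 1.17.1. The fit was tested on simulated data. Coordinates came from GENCODE v44 and promoters from RefSeq. In the symbol column, 28 entries were dates and were replaced through their identifiers. Where a symbol had 2 entries, which occurred for 1 listed gene, PIK3R3, the higher was used.

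No pairing by replicate number was seen in the values, and the main fit used none. The genes named were all members, all other ERBB ligands, the 2 genes with the smallest adjusted p of each pathway list, neighbours with a mean of at least 1 FPKM, and KLK3, and others are marked, except the fibroblast markers, which are given whole, and RPPH1 and RMRP, which were chosen after their values were seen. A result that the rule also covers is not reported here. The members and lists were chosen with earlier results of these data known. The alternatives covered the pseudocount, the filter, the scaling, the variance trend, a replicate block, the threshold and each library left out.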

Additional observations from a re-analysis of the deposited data

How the results depend on the processing

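EGFR, EGF and TGFA kept their direction and their call in every limma fit tried. ERBB4 and AREG also kept theirs where they were tested, and AREG was not tested under the filter at 1 FPKM. Since ERBB4 and AREG passed the filter only through the resistant libraries, this is a description and no test of their difference. The members called ranged from 3 to 4 higher and from 2 to 3 lower in the resistant cells with each library left out, and DEGs over all genes from 9324 to 10152. With an adjusted p below 0.01, 12 genes of the pathway lists were higher against 19. Within the lists, the 3 higher RAS-MAPK genes became 1 without parental replicate 2, resistant replicate 1 or resistant replicate 2, the 2 higher negative regulators became 1 without replicate 1 or 2 of either group, the 2 lower adaptors became 1 without resistant replicate 1, and 1 PI3K-AKT gene was higher without parental replicate 1, with the 1 FPKM filter and with upper quartile scaling. The higher RAS-MAPK genes were 0 with no variance trend and at an adjusted p below 0.01, and 1 with the replicate block. The higher negative regulators were 1 in each of these 3 settings. The lower adaptors were 1 with the block, with upper quartile scaling and at 0.01, where the higher shedding genes were 0. Without resistant replicate 2, NRG1 passed the threshold, with the limit of the filter given above. ERBB2 lost its call in the 4 fits named above.

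The difference in the ERBB2 share of receptor FPKM ranged from −3.82 to 2.25 percentage points with each library left out. As a log2 ratio to the geometric mean of the other genes, ERBB3, HBEGF and EREG turned to −1.32, −1.07 and −0.15, since ERBB4, AREG and NRG1 then weigh as much as abundant genes. Scaling moved the median log2 fold change of all genes from −0.05 to between −0.07 and 0.02, and no member turned direction.

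Deviations from the group means of libraries with the same replicate number correlated across genes with r between −0.00301 and 0.0165. For different numbers r lay between −0.0260 and 0.0201. No effect shared by number was thus seen, which cannot tell whether the samples were prepared in pairs. A fit with a replicate block called 9463 genes against 10868, and the same counts of members, 3 higher and 3 lower, and 15 higher and 16 lower genes of the pathway lists.

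Depth limits AREG, EREG and the parental values of ERBB4, which rest on few reads.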

Other observations

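Of 15 genes of the table that overlap a member in the annotation, 11 were listed at 0 in every library. These include the intronic transcripts NRG1-IT1, NRG1-IT3 and TGFA-IT1, on the same strand as the member, and the microRNA gene MIR4728 within ERBB2. The 4 genes above 0 in some library were EGFR-AS1, with 0.0188, 0 and 0.0277 FPKM in parental cells, against 0 in the resistant libraries, RP11-603J24.9, and the ERBB2 neighbours MIEN1 and PGAP3. They were chosen after their values were seen. MIEN1, which overlaps the 3′ end of ERBB2 on the opposite strand, had 74.4, 60.8 and 70.8 FPKM in parental cells, against 63.3, 62.7 and 70.8 FPKM in resistant cells, which overlap.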
